A study of Mus musculus with 6 samples.

Results

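The cytosolic ribosomal protein genes encode the proteins of the large (Rpl) and small (Rps) ribosomal subunits. Their probes were found on the arrays by name, as every mouse symbol made of Rpl or Rps and a number, with Rpsa and Rplp0 to Rplp2, and without Rps6 kinases and pseudogenes. This gave 76 probes of 74 genes (47 of the large and 27 of the small subunit) among the 19801 gene probes of the array, which carry symbols of 13857 genes. A further 13 protein-coding genes of that name pattern, among them Rpl10l, Rpl17, Rpl22l1, Rpl23a, Rpl34, Rps15a, Rps25, Rps29 and Rps9, had no probe by this rule and were not analysed here.

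RNA of whole bone marrow from female mice (C57BL/6J and 6 to 10 weeks old by the labels, with C57BL/6J-CD45.1 recipients in the study's methods) was hybridized to 6 one-colour CodeLink mouse arrays, 2 for each of 3 groups. BM was marrow of mice that were not irradiated, with 2 mice pooled on each array. HSC was marrow of mice that received 9.5 Gy and then 1000000 bone marrow cells, blood stem cells included, with 2 mice pooled on each array. MSC was marrow of mice that received 9.5 Gy and then 1000000 cultured mesenchymal stromal cells carrying a retroviral eGFP label, with 3 mice pooled on each array. No bone marrow cells were described as given with the stromal cells. HSC and MSC share the irradiation, so that BM differs from both in irradiation as well as in transplant, and these cannot be told apart. The study's methods place the sampling at day 21 and the series text at 7 months after transplantation. With 2 arrays of pooled mice per group, a test measures the spread between pools and has little power.

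Ribosomal proteins assemble with ribosomal RNA in the nucleolus, each subunit needs nearly all of its proteins in fixed numbers, and their mRNAs are among the most abundant of a growing cell. In vertebrates these mRNAs begin with a run of pyrimidines, the terminal oligopyrimidine tract, through which growth signals set how much of them is translated. Several of the proteins act on p53 or on its inhibitor Mdm2 when ribosome assembly or DNA is damaged, and loss of 1 copy of some of the genes in humans causes Diamond-Blackfan anaemia, a failure of red cell formation in the marrow.

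To show where runs of pyrimidines lie in these genes, the 60 bases around the annotated start (30 before, 30 from the start on; RefSeq, build GRCm38.p6, 5′ to 3′ on the strand of the gene) are given for 6 members whose levels are described further on, including 1 without such a run. Capitals mark unbroken runs of at least 8 bases that are each C or T.
Rpl26 (chr11:68901536-68901595, plus strand): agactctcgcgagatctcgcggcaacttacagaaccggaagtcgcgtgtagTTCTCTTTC
Rpl39l (chr16:10170198-10170257, plus strand): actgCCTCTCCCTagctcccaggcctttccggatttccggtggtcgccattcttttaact
Rps7 (chr12:28635924-28635983, minus strand): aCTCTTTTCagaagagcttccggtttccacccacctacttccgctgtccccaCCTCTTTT
Rpl14 (chr9:120571487-120571546, plus strand): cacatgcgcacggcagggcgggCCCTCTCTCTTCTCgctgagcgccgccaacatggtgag
Rpl7a (chr2:26910777-26910836, plus strand): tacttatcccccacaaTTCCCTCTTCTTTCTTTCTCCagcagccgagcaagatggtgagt
Rpl7l1 (chr17:46782627-46782686, minus strand): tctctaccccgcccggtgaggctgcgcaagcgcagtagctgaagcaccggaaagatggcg

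Start sequences were found for 58 of the 74 member genes. A run of 8 or more C or T bases on the gene's own strand lay in this window in 30 of the 58 (51.7%), against 25.8% of all 27025 genes with a start sequence. The longest run was 21 bases in Rpl7a and 14 in Rpl14, while Rpl7l1, which encodes a relative of Rpl7 that in human cells binds precursors of the large subunit, had no run over 5 bases. The letters CCGGAA, the core of the sequence that Ets-family factors bind, were present on either strand of the 300 bases from 250 before to 50 after the start in 33 of the 58 member genes (56.9%) and in 16.7% of all genes. Among genes with a single annotated start the shares were 51.0% against 22.6% for the run and 57.1% against 15.1% for CCGGAA. The window is placed by the annotated start, which in several of these genes does not coincide with the run, so that the first share counts runs near the start rather than at the first base of the mRNA. A match is a description of the sequence and was not tested against the levels.

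The names of these probes needed a check. Each gene probe carries a sequence record and a gene number, and among the 67 member probes where both named a gene, the gene number named another gene in 51 (76.1%) such as Rpl24 for the Rpl26 record, Rpl9 for Rplp1 and Rps13 for Rps14. Among other probes both identifiers named different genes in 286 of 10388 (2.75%). In the 46 mismatched member probes that the platform annotation also names, it gave the gene of the sequence record in 46. The sequence record was therefore used, and it named 69 of the 76 probes, with 3 more named by gene number and 4 by the platform annotation. Rpl22 and Rpl27a have 2 probes each, and the second probe of both (from the cDNA records BC021344 and AK011361) is among these 4, with gene numbers that name Rpl21 and Rpl27.

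Most of the family lay at the upper end of what the scanner could read. The scanner software flags a spot as saturated when its pixels reach the highest value it can record, and a saturated spot gives only a lower bound. On all 6 arrays 34 of the 76 member probes were saturated (21 of 49 for the large and 13 of 27 for the small subunit), 20 were saturated on 1 to 5 arrays and 22 on none. The family made up 41.5% of the 82 probes of the whole array that were saturated on all 6. BM array 1 had 52 saturated member probes and BM array 2 had 48. HSC array 1 had 43 and HSC array 2 had 41. MSC array 1 had 44 and MSC array 2 had 49. The count was thus highest in BM array 1 and lowest in HSC array 2, and the MSC arrays lay on both sides of BM array 2. Between 72 and 75 member probes were above background on each array, against 11072 to 12510 of all gene probes, and the median log2 intensity of the members was 15.11 to 15.21 where that of all probes was 8.26.

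The 34 probes saturated throughout included Rpl5, Rpl6, Rpl7, Rpl10, Rpl10a, Rpl11, Rpl12, Rpl15, Rpl22 (first probe), Rpl27a (first probe), Rpl32, Rpl35, Rpl35a, Rpl36, Rpl36a, Rpl37, Rpl37a, Rpl39, Rpl41 and Rplp2 of the large subunit and Rps2, Rps3a1, Rps6, Rps14, Rps15, Rps16, Rps18, Rps19, Rps21, Rps23, Rps27 and Rps27a of the small. Their normalized log2 intensities ran only from 15.04 to 15.63, and a probe's range over the 6 arrays had a median of 0.13, against 0.80 for the 22 probes saturated on none. For these 34 no fold change between groups is given, since both sides are bounds. They include Rps19, the gene in which mutations were first tied to Diamond-Blackfan anaemia, Rps6, the target of the S6 kinases, and Rpl5 and Rpl11, which bind Mdm2. They also include Rps27a, a fusion of ubiquitin and a small-subunit protein that served as reference gene in the study's quantitative PCR. Its log2 intensities were 15.49 and 15.48 in BM, 15.55 and 15.60 in HSC and 15.59 and 15.50 in MSC, all flagged as saturated, so that these arrays do not measure how steady its level was.

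**Figure D1:**
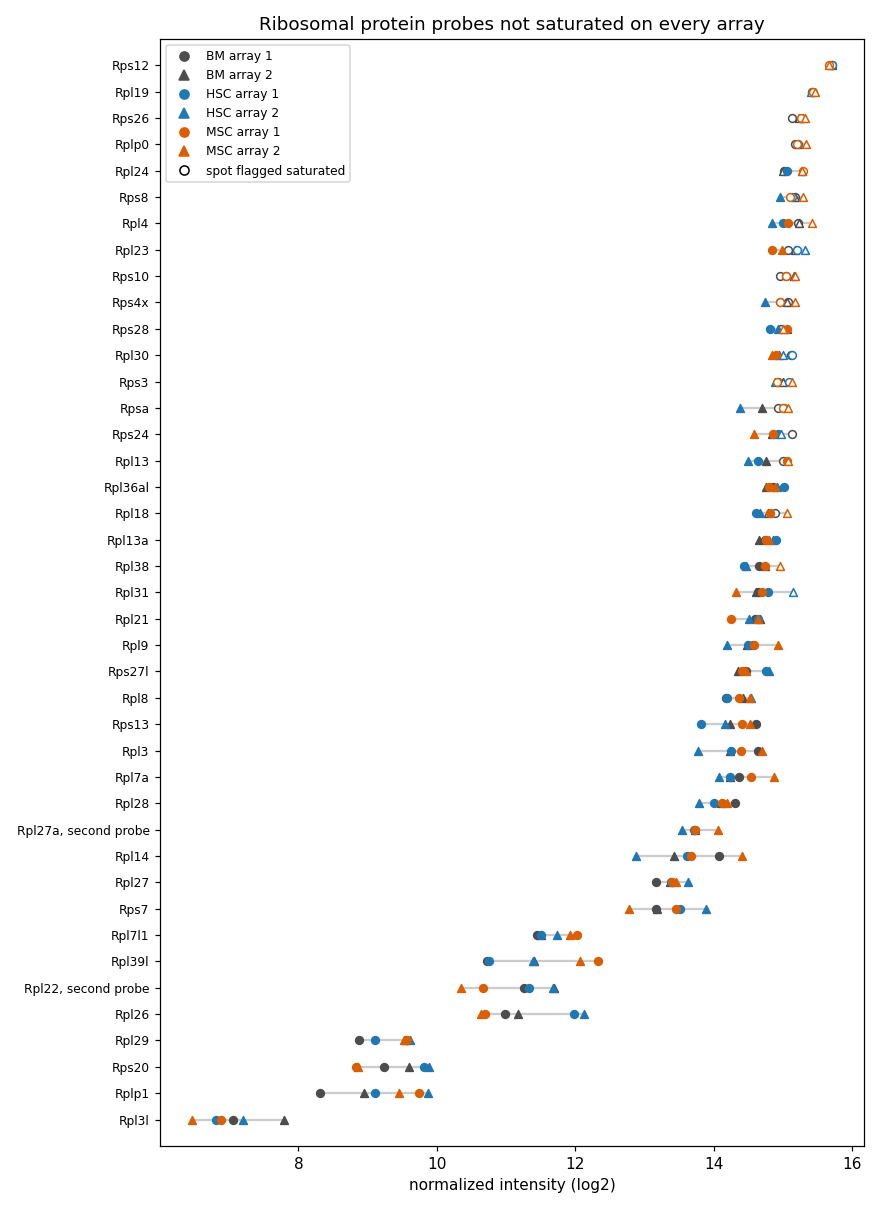
Normalized log2 intensity (horizontal axis) of 41 ribosomal protein probes that were not saturated on all 6 arrays, 1 row per probe in the order of their medians, with a point for each array (circles array 1, triangles array 2) and open points for saturated spots. The rows with open points lie near 15, and the rows of Rpl26, Rps20, Rplp1, Rpl39l, Rpl14, Rpl3l, Rps7 and the second Rpl22 probe spread wider. The position of a row depends on the probe and does not rank the genes by abundance.

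No member probe passed the test in any of the 3 comparisons. The test was limma's moderated test on the log2 values of all 6 arrays with Benjamini-Hochberg adjustment over all tested probes, at an adjusted p of 0.05. In MSC against HSC, which asks how the marrow differs by the transplanted cells after the same irradiation, 0 of 75 tested members were called, where 0.48% of all 11660 tested probes were (9 higher and 47 lower). In MSC against BM 0 of 75 were called, where 0.43% of 11861 were, and in HSC against BM 0 of 75, where 0.0359% of 11153 were. The comparisons share arrays, so they are not independent of each other. At an unadjusted p under 0.05 there were 7 members in MSC against HSC (4 higher, 3 lower), 5 in MSC against BM (3 higher, 2 lower) and 2 in HSC against BM (both higher), which is 9.33%, 6.67% and 2.67% of the members tested, against 16.9%, 12.4% and 5.37% of all probes. The methods' t-test, an unpaired test per probe, gave 6, 8 and 4 members with an unadjusted p under 0.05 in the same order, which is 8.45%, 10.8% and 5.71% of those with both arrays in each group, against 11.3%, 7.91% and 6.17% of all probes. By this test the members' share in MSC against BM thus lay above that of all probes and by limma below it. After Benjamini-Hochberg adjustment it gave 0 in each. The remaining member, Rpl3l, was not tested because no group had both arrays above background.

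The family as a whole did not sit apart from the other probes on this scale. The median log2 difference of the 75 tested members was -0.00 in MSC against HSC, 0.03 in MSC against BM and 0.01 in HSC against BM, beside 0.02, 0.01 and 0.01 for all tested probes. Many of the values behind these medians are bounds on both sides. In MSC against HSC both groups were saturated on all their arrays in 38 of the 75 members, in MSC against BM in 43 and in HSC against BM in 40. The 21 tested members that were saturated on no array had medians of 0.18, 0.15 and 0.03 in the same order, and 13, 15 and 12 of the 21 lay above 0. These too moved with the scaling, to -0.10, 0.02 and 0.17 under background subtraction and to 0.01, 0.05 and 0.11 with each array scaled to its median.

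The family median also depended on how the arrays were put on 1 scale. Quantile normalization, used here, gives every array the same distribution. With each array scaled to its median instead, the member median was -0.33 in MSC against HSC, 0.09 in MSC against BM and 0.40 in HSC against BM, while the median of all probes was -0.06, -0.06 and 0.02. With plain background subtraction it was -0.44, 0.07 and 0.48. Cyclic loess gave 0.09, 0.17 and 0.09. The measured intensities behind this are that the median member signal after background subtraction was 38580 and 38852 in BM, 35422 and 35532 in HSC and 34940 and 37589 in MSC, whereas the median of all probes was 321 and 243 in BM, 192 and 177 in HSC and 221 and 288 in MSC. The arrays thus differed less in the bright members, many of them at the scanner's limit, than in the typical probe, and the direction of the family median in MSC against HSC flipped between these settings.

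**Figure D2:**
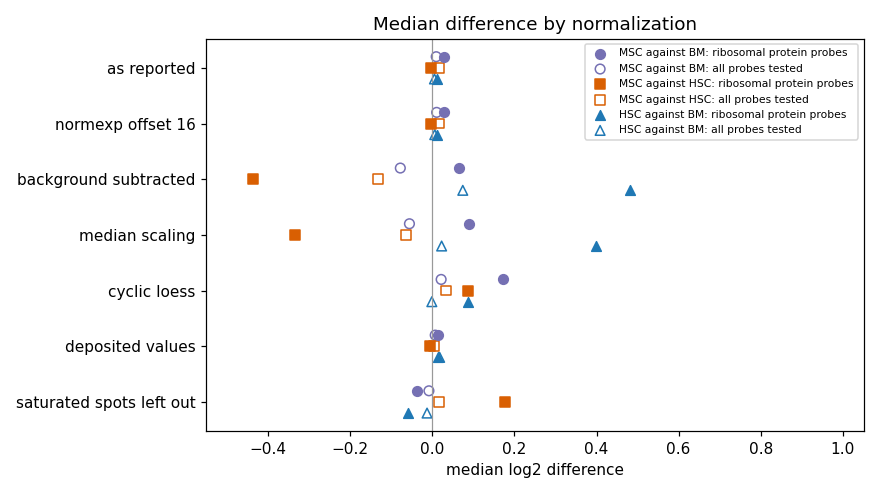
Median log2 difference (horizontal axis) of the tested ribosomal protein probes (filled) and of all tested probes (open) in the 3 comparisons, for the normalization used here and 6 alternatives (rows). The filled points lie near 0 under the setting reported and move to -0.33 and 0.40 under median scaling, while the open points lie between -0.13 and 0.07.

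Rpl26 had the lowest log2 difference of the members in MSC against HSC and the highest in HSC against BM. It encodes a large-subunit protein that in human cells binds p53 mRNA after DNA damage and raises its translation. Its log2 intensities were 10.98 and 11.17 in BM, 11.98 and 12.12 in HSC and 10.70 and 10.63 in MSC. Both HSC arrays lay above BM and both MSC arrays below BM, with no overlap between any of the groups, and no spot was saturated or at background. The difference between MSC and HSC was -1.39 (SE 0.20), a level in HSC 2.61-fold that in MSC, with a limma adjusted p of 0.0505 over all probes, just above the threshold. Against BM the differences were 0.98 in HSC (SE 0.20, limma adjusted p = 0.482) and -0.41 in MSC (SE 0.20, adjusted p = 0.474).

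The call on Rpl26 in MSC against HSC turned on the settings. It passed under 5 of 17 alternatives (median scaling, cyclic loess, only probes above background on all 6 arrays, saturated spots left out, and a trend in the variance) with limma adjusted p from 0.0424 to 0.0491. It did not pass under the other 12, with values up to 0.241, and leaving out any 1 array gave 0.0592 to 0.241. Its difference ran from -1.70 to -1.31 over all of these. It was also the 1 member that met the rule of the methods' t-test (p of at most 0.01 and a ratio of at least 2.5), which 0.313% of all probes met in this comparison (0 members in MSC against BM, where 0.26% of all probes met it, and 0 in HSC against BM, where 0.104% did), and because the study named the gene by that rule from these same arrays, its direction here is not independent evidence.

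Rps20 and the second Rpl22 probe also had low values in MSC. Rps20, a small-subunit protein, had log2 intensities of 9.24 and 9.60 in BM, 9.82 and 9.88 in HSC and 8.83 and 8.87 in MSC. Like Rpl26, it was above both BM arrays in HSC and below both in MSC. The difference between MSC and HSC was -1.001 (SE 0.21, limma adjusted p = 0.116).

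The second Rpl22 probe read 11.25 and 11.69 in BM, 11.32 and 11.67 in HSC and 10.67 and 10.35 in MSC. BM and HSC overlapped and both MSC arrays lay below all others, with differences of -0.96 against BM (SE 0.26, limma adjusted p = 0.250) and -0.99 against HSC (SE 0.26, adjusted p = 0.153). Rpl22 is known in mice for its need in the development of αβ T cells. Its first probe was saturated on all 6 arrays at 15.37 to 15.44 and gives no comparison, so the gene has 1 readable probe, and that probe's own gene number names Rpl21.

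**Figure D3:**
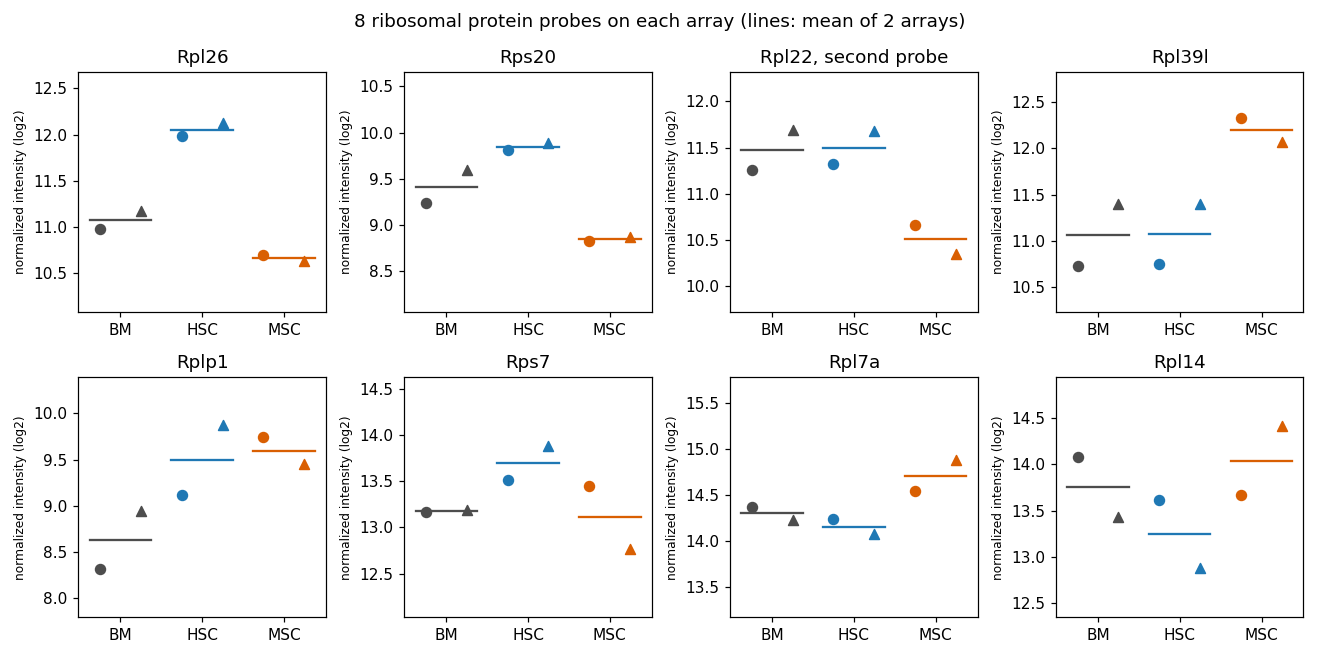
Normalized log2 intensity (vertical axes, all of equal span) of 8 ribosomal protein probes on each array, with group means as lines. Rpl26 and Rps20 are high in HSC and low in MSC with arrays of a group close together, Rpl39l is high in MSC, and in Rpl14 the arrays of a group lie about as far apart as the groups.

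The early B cell markers moved in the same order as Rpl26 and Rps20. Of 8 marker genes 7 had a probe and 0 of these were at background on all arrays. Summed over the 5 probes with a value on every array, their normalized intensity was 13110 to 13916 in BM, 18214 to 21270 in HSC and 1389 to 2200 in MSC. In MSC against HSC 5 of 7 were called lower by limma, in MSC against BM 4 of 7, and in HSC against BM 0 of 7 were called. Only 3 of the 7 early B cell probes were above background on all arrays. Platelet and mature B cell markers had another order, with the highest sums in BM. The 7 erythroid marker probes had 0 calls, with summed intensities over 6 probes of 31208 to 42285 in BM, 36571 to 43150 in HSC and 44790 to 50800 in MSC. The part of a changed mix of cells in the levels of Rpl26, Rps20 and Rpl22 was not tested, and in whole marrow fewer cells of a type and less RNA per cell cannot be told apart.

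The paralogs, extra copies that replace or resemble a standard subunit protein, did not move together. Rpl39l, a copy of Rpl39 best known from the male germ line, read 10.73 and 11.40 in BM, 10.75 and 11.40 in HSC and 12.33 and 12.07 in MSC. BM and HSC overlapped, and both MSC arrays lay above them, by 1.14 against BM (SE 0.32, limma adjusted p = 0.267) and 1.12 against HSC (SE 0.32, adjusted p = 0.174). This was the highest difference of the members in both comparisons with MSC. Rpl39 itself was saturated throughout, at 15.38 to 15.46.

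Rpl7l1 read 11.45 and 11.51 in BM, 11.50 and 11.74 in HSC and 12.03 and 11.93 in MSC. Both MSC arrays lay above all others, with a difference of 0.50 against BM (SE 0.20, limma adjusted p = 0.387). Rps27l, a copy of Rps27 that p53 switches on in human cells, read 14.47 and 14.35 in BM, 14.76 and 14.79 in HSC and 14.41 and 14.47 in MSC. Both HSC arrays lay above the rest, with a difference of 0.36 against BM (SE 0.19, limma adjusted p = 0.897), and BM and MSC overlapped. Rpl36al, a copy of Rpl36a, stayed between 14.75 and 15.02 on the 6 arrays. Rpl3l, a copy of Rpl3 made in heart and skeletal muscle, was above background on 1 array of 6 and read 6.47 to 7.79.

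The stalk of the large subunit, which recruits elongation factors, is built of Rplp0, Rplp1 and Rplp2. Rplp2 was saturated on all 6 arrays and Rplp0 on the 5 that had a usable spot, so that only Rplp1 was readable. Rplp1 read 8.31 and 8.94 in BM, 9.11 and 9.87 in HSC and 9.74 and 9.45 in MSC. Both irradiated groups lay above both BM arrays, by 0.86 in HSC (SE 0.33, limma adjusted p = 0.897) and 0.97 in MSC (SE 0.34, adjusted p = 0.323). The arrays of a group differed by up to 0.76, so these differences stand on a wide spread.

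In Rpl14, a protein of the large subunit, arrays of 1 group differed nearly as much as the groups. It read 14.08 and 13.43 in BM, 13.62 and 12.88 in HSC and 13.67 and 14.41 in MSC. Array 2 of HSC was the lowest and array 2 of MSC the highest of the 6. The difference between MSC and HSC of 0.79 (SE 0.38, limma adjusted p = 0.348) depended on those arrays, since it was 0.42 without array 2 of MSC or without array 2 of HSC, and 1.17 without array 1 of MSC.

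Rpl3, which reaches close to the catalytic centre of the large subunit, read 14.64 and 14.24 in BM, 14.26 and 13.77 in HSC and 14.39 and 14.69 in MSC. Rpl7a read 14.37 and 14.23 in BM, 14.24 and 14.07 in HSC and 14.54 and 14.88 in MSC. Rps13 read 14.61 and 14.24 in BM, 13.81 and 14.16 in HSC and 14.41 and 14.52 in MSC. In these 3 both MSC arrays lay above both HSC arrays, with differences of 0.53, 0.55 and 0.48 and limma adjusted p of 0.365, 0.266 and 0.355.

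Rps7, a small-subunit protein that binds Mdm2, went the other way, with 13.17 and 13.18 in BM, 13.51 and 13.88 in HSC and 13.45 and 12.77 in MSC. The HSC arrays were above BM by 0.52 (SE 0.28, limma adjusted p = 0.897), while the MSC arrays fell on both sides of BM. Rpl31 read 14.63 and 14.61 in BM, 14.79 and 15.14 in HSC, the latter saturated, and 14.70 and 14.33 in MSC. Rpl28 read 14.31 and 14.10 in BM, 14.00 and 13.78 in HSC and 14.11 and 14.19 in MSC. Its HSC arrays both lay below the others, with a difference of -0.32 against BM and a limma adjusted p of 0.897.

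Over the 21 never-saturated members above background on all arrays, the gap between the arrays of a group had a median of 0.21 in BM, 0.30 in HSC and 0.27 in MSC, beside 0.27, 0.25 and 0.26 in the 8778 other probes above background on all arrays. The widest gaps were 0.67 for Rpl39l in BM, 0.76 for Rplp1 in HSC and 0.75 for Rpl14 in MSC. The median size of the difference between groups in the never-saturated members was 0.41 in MSC against HSC, 0.23 in MSC against BM and 0.24 in HSC against BM, beside 0.30, 0.25 and 0.20 for all probes. In the members only the MSC against HSC value exceeded the median gaps within all 3 groups. The value of 0.30 for all probes in that comparison likewise exceeded the gaps of the other probes. A difference between group means averages over arrays, and a gap between single arrays does not. The sizes are therefore not directly comparable and do not show which of the median differences exceed the spread between arrays.

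**Figure D4:**
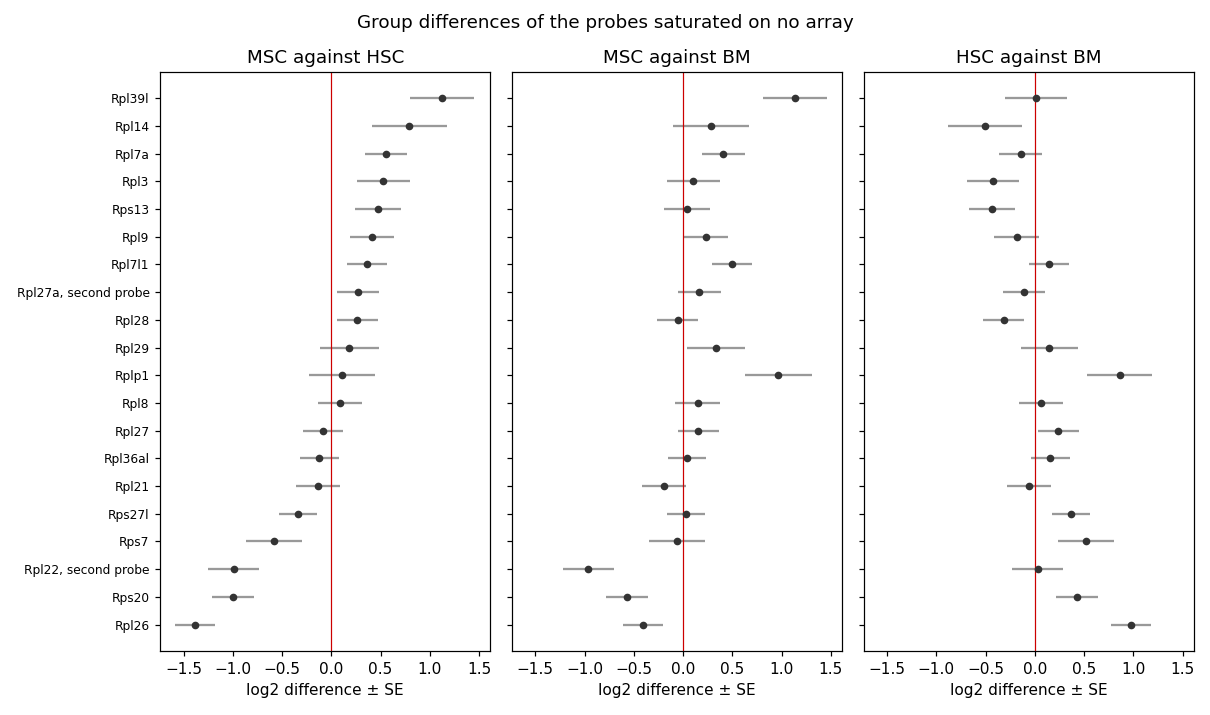
Log2 difference with its standard error from limma (horizontal axes) for 20 of the 21 tested ribosomal protein probes saturated on no array, in the 3 comparisons, with rows in the order of MSC against HSC. The values run from -1.39 for Rpl26 to 1.12 for Rpl39l in MSC against HSC, and none had an adjusted p under 0.05.

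Whether the 2 arrays of a group all lay on 1 side of the other group was also counted. In MSC against HSC, 21 members lay higher and 19 lower without overlap, of 71 with a value on all 4 arrays, where 24.8% of all probes lay higher and 26.5% lower. In MSC against BM it was 22 and 14 of 74, where the shares were 20.5% and 21.9%, and in HSC against BM 20 and 16 of 70, where they were 20.4% and 16.2%. Among all members these counts include saturated spots, whose order carries no information. Among the 21 never-saturated members, 10 lay higher and 6 lower in MSC against HSC, 7 and 3 in MSC against BM and 7 and 4 in HSC against BM.

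In members saturated in 1 group and not in the other, the fold is a lower bound taken from the saturated group's measured mean. It holds on the quantile-normalized scale used here and can change with the scaling. Rpl23, which binds Mdm2, was saturated on both arrays of BM and HSC and on 0 in MSC, and its level was at least 1.27-fold higher in HSC (log2 means 15.26 and 14.91, limma adjusted p = 0.412) and at least 1.16-fold higher in BM (15.12, adjusted p = 0.719). Rpl30 had the same pattern, with at least 1.14-fold in HSC and at least 1.11-fold in BM. Rps24 was saturated on both BM arrays, on 1 HSC array and on 0 MSC arrays. By the means it was at least 1.20-fold higher in BM than in MSC (log2 means 14.98 and 14.72, limma adjusted p = 0.677). The measured values overlapped, with 15.13 and 14.83 in BM and 14.85 and 14.58 in MSC.

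Rpl4 was saturated on both BM arrays and on 0 HSC arrays, and on the scale used here was at least 1.23-fold higher in BM (log2 means 15.22 and 14.92, limma adjusted p = 0.897). For Rpl18 the bound in the same direction was at least 1.15-fold and for Rps28 at least 1.10-fold. The direction of Rpl4, Rpl18 and Rps28 depended on the scaling. Under background subtraction Rpl4 was higher in HSC than in BM. Under median scaling and under background subtraction Rpl18 and Rps28 were higher in HSC than in BM, as were all 19 probes of Diamond-Blackfan genes. Most of the family went the same way. Under median scaling 44 of 48 tested probes of the large and 25 of 27 of the small subunit were higher in HSC. Under background subtraction it was 45 of 48 and 25 of 27. Rpsa, the laminin receptor and small-subunit protein, was saturated on both MSC arrays and on 1 of 2 HSC arrays, so that no fold is given. It read 14.92 and 14.69 in BM, 15.01 and 14.38 in HSC and 14.99 and 15.07 in MSC. Rpl13 was saturated on 1 array each of BM and MSC and read 15.01 and 14.76 in BM, 14.65 and 14.50 in HSC and 15.05 and 15.08 in MSC. Both MSC arrays lay above both HSC arrays, and since 1 of the MSC spots is a lower bound, the measured difference of 0.49 (limma adjusted p = 0.291) is one too.

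The groups of members with a known role in disease followed the same picture. Of 21 genes of Diamond-Blackfan anaemia in humans, 19 had a probe, 8 of them saturated on all arrays. Limma called 0 in any comparison, and at an unadjusted p under 0.05 there were 2 lower in MSC against HSC (Rpl26 and Rps20), 1 lower in MSC against BM (Rps20) and 1 higher in HSC against BM (Rpl26). These are 10.5%, 5.26% and 5.26% of the 19, against 16.9%, 12.4% and 5.37% of all probes. Their median differences were -0.04, -0.02 and 0.03, beside 0.02, 0.01 and 0.01 for all probes. With saturated spots left out the medians were -0.20 over 9 probes, -0.20 over 6 and 0.30 over 6. Rpl27 and Rpl8, also of this list, read 13.17 to 13.63 and 14.18 to 14.54, with overlapping MSC and HSC arrays.

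A chosen list of 9 members that act on Mdm2 or p53 was measured in full (Rpl5, Rpl11, Rpl23, Rpl26, Rps3, Rps7, Rps14, Rps27a and Rps27l). Of these 9, 4 were saturated throughout and 0 were called. The list does not claim to hold every member with such a role. With saturated spots left out, Rpl26, Rps7 and Rps27l remained, and 3 of 3 had a difference above 0 in HSC against BM (median 0.45) and 3 of 3 below 0 in MSC against HSC (median -0.58). In MSC against BM 3 of 3 were below 0 (median -0.13). Of the 21 never-saturated members under this setting, 10 were above 0 in HSC against BM. In MSC against HSC 8 of the 21 were below 0, and in MSC against BM 11. With all spots kept, the MSC against HSC differences of Rpl26, Rps7 and Rps27l were -1.39, -0.58 and -0.34. Rpl23 had the bound given before, and Rps3, saturated on 5 of 6 arrays, gives no comparison.

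Related gene groups outside the family also gave 0 calls by limma in all 3 comparisons. Of 72 probes of mitochondrial ribosomal proteins, which build the separate ribosome of that organelle, 70 were tested in MSC against HSC and none was saturated on all arrays. Their median was -0.03, with 3 higher and 9 lower at an unadjusted p under 0.05, which is 17.1% against 16.9% of all probes. Mrpl35 (-0.95, limma adjusted p = 0.161) and Mrpl33 (-0.88, adjusted p = 0.145) were lowest and Mrpl2 (1.01, adjusted p = 0.152) and Mrps5 (0.96, adjusted p = 0.303) highest.

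Of 47 tested probes of ribosome assembly factors, 9 were higher and 5 lower in MSC against HSC at an unadjusted p under 0.05, which is 29.8% against 16.9% of all probes, with a median of 0.27. Bop1, needed to process large-subunit RNA, had the highest difference there (1.31, limma adjusted p = 0.178), next to Rrp1 (1.20, adjusted p = 0.126), and Riok2, a kinase of small-subunit assembly, the lowest (-0.98, adjusted p = 0.134). Bop1 was dim in HSC, with a mean of 7.04 where the median of all probes was 8.26. The 36 tested initiation factor probes had a median of 0.17 and the 7 elongation factor probes 0.86, with Eef2, which moves the ribosome along the mRNA, at 2.90 (SE 0.80, limma adjusted p = 0.164). Eef2 had both arrays above background in MSC only, with means of 9.73 in MSC, 6.84 in HSC and 7.89 in BM. It thus entered the elongation factor medians through the group where it was high, and was not tested in HSC against BM. In MSC against BM the medians were 0.05 for mitochondrial ribosomal proteins, 0.17 for assembly factors, 0.11 for initiation and 0.68 for elongation factors. In HSC against BM they were 0.06, 0.01, -0.02 and -0.21. The share of assembly factors with an unadjusted limma p under 0.05 was 12.8% in MSC against BM, against 12.4% of all probes. In HSC against BM it was 4.44%, against 5.37% of all probes.

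Ribosomal proteins that carry other symbols were also measured. Rack1, of the small subunit, was saturated on all 6 arrays, and Fau, a fusion with a small-subunit protein, had differences of 0.28 in MSC against HSC, -0.02 in MSC against BM and -0.30 in HSC against BM (limma adjusted p = 0.582, 0.988 and 0.902). Of 5 other mRNAs with a terminal oligopyrimidine tract, 2 were saturated throughout, and their median was 0.04 in MSC against HSC, 0.05 in MSC against BM and 0.01 in HSC against BM.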

How the data were processed

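The authors hybridized biotin-labelled cRNA to CodeLink arrays (UniSet Mouse 20K I in the study's methods, Human in the labels) and scanned them with CodeLink software. Of the deposited files, the mean spot intensity, the median background intensity and the quality flags of each array were used. The deposited value table holds log2 values normalized by the authors and served as an alternative. Its normalization is not given in the sources used here.

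Background was corrected by normexp (offset 50) and arrays were quantile normalized on log2 values (R 4.3.3, limma 3.58.1). Spots with the flags C, M or X (209 to 558 per array) were left out, and saturated spots were kept and marked. Tests took the probes that exceeded background on every array of 1 or more of the groups compared. Group means were compared in 1 limma fit over 6 arrays (3 residual degrees of freedom), with Benjamini-Hochberg adjustment over all tested probes. The steps were tested on simulated data. Precision is limited by 2 arrays per group.

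Probes were named by sequence record through RefSeq. Probe sequences were not used here, so matches of a probe to the many pseudogenes or near-identical copies of these genes were not checked. The members, gene lists and tests were chosen with earlier results of these data known. Named were Rpl26, the 5 highest and 5 lowest members per comparison that were not saturated in both groups, saturated members, paralogs, members with 2 probes, Rps27a, members of the disease and p53 lists, and the 2 highest and 2 lowest genes of related lists, of which the text gives some. A few members that the rule selects are not reported here by name. Rpl13, Rpl18, Rpl4, Rps28, Rpsa and Rpl30 were named for their saturation after their values were seen. Marker lists of neutrophils, mature B cells, T cells, monocytes, platelets and stroma were also summed. Alternatives covered background, scaling, filters, the trend, the replicate block, the methods' t-test, 1 probe per gene and each array left out.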

Additional observations from a re-analysis of the deposited data

Results flagged for a closer look

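In 3 of the 21 never-saturated members, both HSC arrays lay on 1 side of both BM arrays and both MSC arrays on the other, so that the groups after irradiation went opposite ways from BM. Rpl26 and Rps20 were above BM in HSC and below it in MSC, with differences between MSC and HSC of -1.39 and -1.001. The second Rpl27a probe was below BM in HSC (13.71 and 13.54, against 13.73 and 13.73 in BM) and above it in MSC (13.73 and 14.06), with a difference of 0.27. This case was close to a tie, since array 1 of MSC read 13.7314 and array 2 of BM 13.7311. The test of the difference between the groups is the comparison of MSC with HSC itself, with limma adjusted p of 0.0505, 0.116 and 0.549. Of 8652 probes above background and unsaturated on all arrays, 5.36% had the first pattern and 2.06% the second.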

How the results depend on the processing

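Of 22 differences of single members recomputed under the alternatives (374 values), 0 changed direction, 369 kept their side of the threshold and 5, all Rpl26 in MSC against HSC, passed it. The count of called members in MSC against HSC was 1 under median scaling, cyclic loess, probes above background on all 6 arrays, saturated spots left out, the variance trend and the methods' t-test rule, and 0 under the others apart from the crossed pool numbers given last. It was 0 under every alternative in the other comparisons.

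The member median moved with scaling in MSC against HSC (-0.44 background subtracted, -0.33 median scaling, 0.088 cyclic loess, 0.18 with saturated spots left out and 29 probes), in MSC against BM (0.088 median scaling, 0.17 cyclic loess, -0.038 with saturated spots left out) and in HSC against BM (0.48, 0.40, 0.087 and -0.059, in the order of the first). Background subtraction also moved the median of all probes in MSC against HSC to -0.13. The cause was not tested. Leaving out 1 array gave medians of -0.0069 to 0.017 in MSC against HSC, 0.00065 to 0.050 in MSC against BM and -0.0080 to 0.012 in HSC against BM, and 0 called members throughout.

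Pool numbers gave no pairing common to all 3 groups. Over 8848 probes, same-numbered deviations correlated at 0.57 between BM and HSC, -0.28 between BM and MSC and -0.20 between HSC and MSC. The arrays of BM and HSC thus shared deviations by number, and the source of this was not tested. With the replicate block 0 members were called and member medians were -0.00, 0.03 and 0.01, with 1 higher and 14 lower calls over all probes in MSC against HSC in place of 9 and 47. With MSC numbers crossed, a choice made after seeing the data, 1 member was called in MSC against HSC and 0 in MSC against BM.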

Other observations

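The marker lists not given with the ribosomal proteins differed between the groups as follows, as normalized intensity summed over the probes with a value on every array. Platelet markers (3 probes) summed to 31201 to 32141 in BM, 5801 to 7846 in HSC and 2576 to 3098 in MSC. Mature B cell markers (4 probes) summed to 8429 to 8792, 5687 to 6288 and 1534 to 1550 in the same order, and T cell markers (4 probes) to 6006 to 6061, 5270 to 5530 and 5553 to 23504, the last range being that of the MSC arrays. Neutrophil markers (7 probes) summed to 218626 to 225052, 208091 to 217439 and 180075 to 221033. Monocyte markers gave 4176 to 5367, 4152 to 5945 and 4087 to 4559, and stroma markers 2530 to 3934, 4019 to 4758 and 4192 to 10643.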
